A study of Homo sapiens with 4 samples.

Results

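Of the 5323 NRSF/REST sites called at the basal SF-1 dosage, 734 (13.8%, 95% Wilson interval 12.9% to 14.7%) had another site of the same list within 5 kb, measured from edge to edge on the same chromosome. Chaining such neighbours gave 320 clusters of at least 2 sites. The members were chosen by the start and end of the called basal sites, so the number of clusters, their size and the distances in them are described without a test. Sites were measured by ChIP-seq with an anti NRSF/REST antibody in the human adrenocortical carcinoma line H295R, in its clone H295R/TR SF-1, where doxycycline switches on additional SF-1, the nuclear receptor that drives steroid production in the adrenal cortex. One list came from untreated cells (basal dosage) and the other, of 5059 sites, from cells given doxycycline for 3 days (increased dosage). The labels also hold 2 input DNA libraries, which were not analysed here. There was 1 library per dosage, so differences between dosages describe these libraries, have no replicate check and were not tested. The lists hold positions without read counts, depth is unknown, and the intervals below cover counting error only and treat neighbouring sites as separate.

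NRSF/REST is a zinc finger protein that binds the RE1 element, a long DNA sequence made of a left and a right part. In non-neuronal cells it recruits corepressor complexes that deacetylate and methylate histones, and so keeps genes of neurons silent, among them those for ion channels, neurotransmitter receptors and proteins of the synapse. Several of its known target genes carry more than a single RE1 element. The element was searched here as CTGTCC, 2 bases of any kind and GGTGCTG, on either strand, with at most 2 mismatches over the 13 fixed bases.

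The matches below come from clusters with this consensus in the most sites, ties going to fewer mismatches. Their likeness at the fixed positions thus follows in part from the choice. Each sequence below is the best match of a site in hg19, read in the direction of the consensus, with its 13 fixed positions in capitals. Substitutions are numbered from 1 at the first capital, with the base of the consensus first.
CACNA1B site 1, chr9:140773239-140773259, plus strand: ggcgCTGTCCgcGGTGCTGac
CACNA1B site 3, chr9:140779188-140779208, plus strand: ggcgCTGTCCatGGTGCTGag
CACNA1B site 4, chr9:140785415-140785435, plus strand: gtctCTCTCCgtGGTGCTGat
EPHA10 site 1, chr1:38230129-38230149, minus strand: ggaaCTGTCCgcAGTGCTGaa
EPHA10 site 2, chr1:38231676-38231696, minus strand: attcCTGGCCtcTGTGCTGtt
EPHA10 site 3, chr1:38233347-38233367, plus strand: ctttCTGTCTatGGTGCTGaa
PRLHR site 1, chr10:120354185-120354205, minus strand: ggcgCTGTCCgcGGTGCTGgc
PRLHR site 2, chr10:120355776-120355796, minus strand: gaagCTGTCCgtGGTGCTGac
CDH22 site 2, chr20:44858257-44858277, minus strand: ggcaCTGTCCttGGTGCTGga
CDH22 site 3, chr20:44859773-44859793, plus strand: gctgCTGTCCgtGGTGCTGct
HBA2 site 1, chr16:220179-220199, plus strand: gtccCTGTCCccGGTGCTGaa
HBA2 site 2, chr16:224435-224455, plus strand: gtccCTGTCCccGGTGCTGaa
SLC1A6 site 1, chr19:15125563-15125583, plus strand: aacgCTGTCCgtGGTGCTGaa
SLC1A6 site 2, chr19:15126963-15126983, plus strand: aacgCTGTCCgtGGTGCTGaa
At CACNA1B, the pore subunit of the N-type calcium channel, sites 1 and 3 held the consensus without a mismatch and site 4 carried G3C. At EPHA10, an Eph receptor, every site carried at least 1 mismatch, G9A in site 1 and C6T in site 3. Both listed sites of PRLHR, the receptor for prolactin-releasing hormone, of the cadherin CDH22, of the alpha globin gene HBA2 and of the glutamate transporter SLC1A6 held a match without mismatch. The 21 bases were identical between both sites of HBA2 and between both sites of SLC1A6.

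Matches also lay close together inside a single called site. The longest row stood in an intron of NPAS4, a transcription factor gene that neurons switch on with activity, where 5 matches in the same direction followed each other at 38 to 43 bp. They are shown because no other clustered site held as many, and were taken from chr11:66189179-66189360 on the plus strand.
NPAS4 match 1: gctaCTGTCCgcGGTGCTGaa
NPAS4 match 2: ggcgCTGCCCatGGTGCTGac
NPAS4 match 3: ggctCTGTCCatGGTTCTGaa
NPAS4 match 4: agctCTGTCCgcGGTTCTGaa
NPAS4 match 5: agctCTGTCCgcGGTTCTGaa
The first had no mismatch, the second carried T4C, and the last 3 carried G12T. Matches 4 and 5 were the same over 21 bases.

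Most clusters were pairs. There were 264 clusters of 2 sites, 43 of 3 and 7 of 4, and 1 cluster each of 5, 6, 7, 8, 10 and 13 sites. Their span had a median of 1849 bp and ran from 449 to 27199 bp. Neighbours within a cluster stood a median of 551 bp apart (quartiles 201 and 2038.5 bp, range 51 to 4951 bp, 414 neighbouring pairs), and 192 of the pairs were at most 500 bp apart. Along the whole list, 257 neighbouring pairs lay less than 1 kb apart, 52 lay 1 to 2 kb apart and 27 lay 4 to 5 kb apart, against 30 in the first kb beyond the limit. Close pairs were thus concentrated in the first kb, and the 5 kb limit did not fall in a gap of the distribution. Just inside the limit, at 4951 bp, were 2 pairs on chromosome 7, at chr7:61821751-61827049 and chr7:61992351-61997849, with the consensus in no site. Just outside it, at 5051 bp, were 1 pair on chromosome 18, at chr18:44780601-44787349, and 1 on chromosome 4, at chr4:49639751-49645399, with all 4 sites called again at the increased dosage and the consensus in 1 of them.

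**Figure D1:**
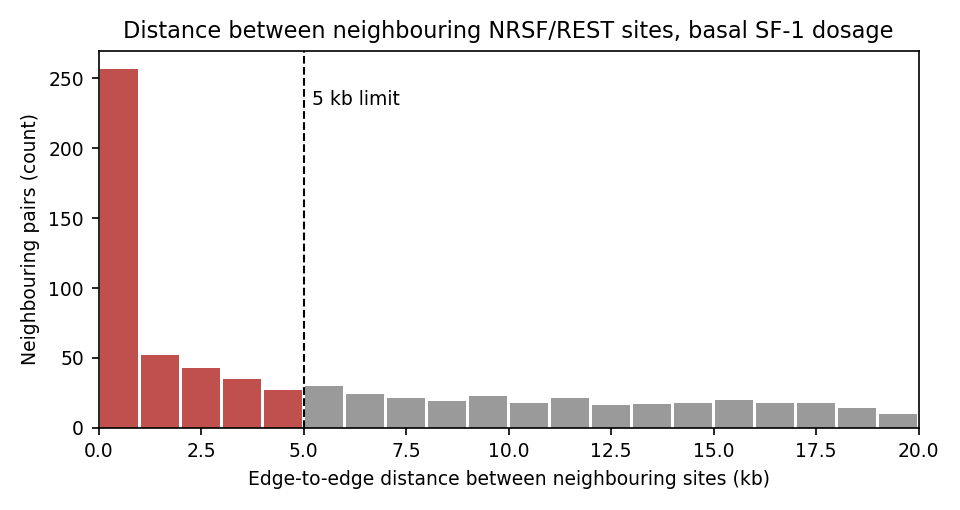
Number of neighbouring pairs of basal NRSF/REST sites (vertical axis) in each kb of edge-to-edge distance (horizontal axis, kb), with the pairs that form clusters in red and those beyond the 5 kb limit (dashed line) in grey. The first kb holds 257 pairs and the next 52, and the counts on both sides of the limit are 27 and 30.

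Clustered sites were called again at the increased dosage more often than the rest of the list. Of the 734, 534 (72.8%, 69.4% to 75.8%) overlapped an increased-dosage site by at least 1 bp, against 2897 of the other 4589 (63.1%, 61.7% to 64.5%) and 64.5% of the whole basal list. They were also wider, with a median of 349 bp against 299 bp, and width went with overlap throughout. Among sites under 300 bp, 45.6% (40.3% to 50.9%, 338 sites) of the clustered and 31.7% (29.9% to 33.6%, 2429 sites) of the other sites were shared. From 300 bp to under 600 bp the order was turned, at 91.6% (86.8% to 94.8%) against 97.6% (96.7% to 98.3%). At 600 bp and over, 205 of 205 clustered and 799 of 800 other sites were shared. The higher share of clustered sites thus went with their larger width and with the narrow class. By the 1 bp rule, a narrow site can count as shared through an increased-dosage site that also overlaps its neighbour. A single increased-dosage site overlapped at least 2 basal sites in 33 clusters. Stricter overlap rules were applied to clustered sites only, so whether the difference holds under them was not tested. The 200 clustered sites called at the basal dosage only had a median width of 149 bp, and the 534 shared ones of 499 bp.

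**Figure D2:**
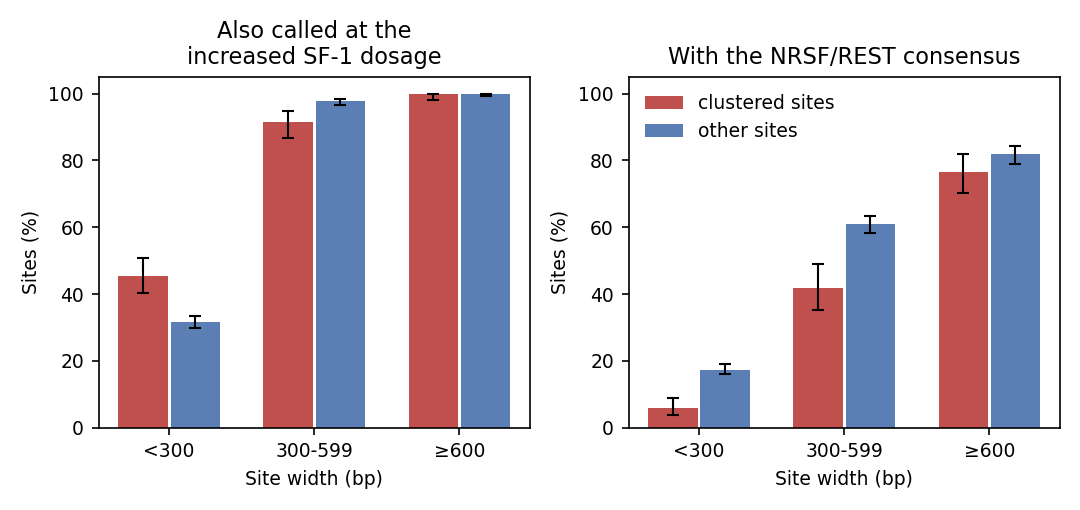
Share of sites (vertical axes, %) that overlapped an increased-dosage site (left) and that held the NRSF/REST consensus (right), by site width in bp (horizontal axes), for clustered sites in red and other basal sites in blue, with 95% Wilson intervals as error bars. Clustered sites under 300 bp were shared more often than others (45.6% against 31.7%) and held the consensus less often (5.92% against 17.4%).

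Taken by cluster, 154 of 320 (48.1%, 42.7% to 53.6%) had every site called again at the increased dosage, 146 (45.6%) had some, and 20 (6.25%, 4.08% to 9.46%) had none. The span of 166 clusters held 2 or more increased-dosage sites, that of 135 held 1, and that of 19 held none. In 33 clusters (10.3%) a single increased-dosage site overlapped at least 2 basal sites. The span of such a cluster could hold further increased-dosage sites, as at VGF with 3 basal and 3 increased-dosage sites. The distance to the nearest neighbour made little difference, with 71.9% of sites shared at up to 500 bp, 73.5% from there to 1 kb and 73.7% beyond, in overlapping intervals. Chained in the same way, the increased-dosage list gave 348 clusters with 785 sites (15.5% of that list), where 67.9% of all sites overlapped a basal site, and 174 of the 320 basal clusters (54.4%) overlapped one of them.

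The consensus was found in a smaller share of clustered sites than of other sites. The share stayed lower once sites with at least 50% of their 32-base words repeated in the genome were left out, in overlapping intervals. The consensus stood in 257 of 734 clustered sites (35.0%, 31.6% to 38.5%), against 41.6% (40.1% to 43.0%) of the other sites and 40.7% of the whole list. It stood in 2.25% of windows as wide as the site, shifted 10 kb up or down from the clustered sites (1.72% for the other sites). Of these windows, 2.32% and 0.425% overlapped a basal site and were kept. A match without mismatch was about as frequent in clustered and other sites, at 12.9% (10.7% to 15.6%) and 10.9%. In each width class the share was lower among clustered sites, at 5.92% against 17.4% under 300 bp, 41.9% against 61.0% from 300 bp to under 600 bp, and 76.6% against 81.9% at 600 bp and over, where the intervals overlapped. In clustered and other sites alike, the consensus went with the call at the other dosage. Among clustered sites it was in 47.0% (42.8% to 51.2%) of the shared sites and in 3.00% (1.38% to 6.39%) of those called at the basal dosage only. Among the other sites these shares were 61.1% and 8.10%. The shared clustered sites were also wider, with a median of 499 bp against 149 bp.

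Sites with the consensus were spread unevenly over clusters. It stood in no site of 117 clusters, in 1 site of 152 and in 2 or more sites of 51 (15.9%). Of these 51, 41 (80.4%, 67.5% to 89.0%) had every site called again at the increased dosage, compared with 61 of the 152 (40.1%, 32.7% to 48.1%) and 52 of the 117 (44.4%, 35.8% to 53.5%). By distance to the nearest neighbour, 34.7% of clustered sites held it at up to 500 bp and 38.0% at more than 1 kb, in overlapping intervals. The 20 clusters with no shared site all belonged to the 117 without the consensus. None of their sites was wider than 299 bp.

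In pairs the wider site usually carried the consensus. Of the 264 clusters of 2 sites, 249 had sites of unequal width, with a median of 649 bp for the wider and 199 bp for the narrower. The wider site held the consensus in 62.7% (56.5% to 68.4%) and was shared in 92.0%, while the narrower held it in 17.3% (13.1% to 22.5%) and was shared in 53.8%. The contrast was larger where the sites stood at most 500 bp apart. In these 123 pairs the consensus was in 69.9% of the wider and 5.69% of the narrower sites, that is in the wider site alone in 80, in both in 6, in the narrower alone in 1 and in neither in 36. In the 126 pairs more than 500 bp apart, 55.6% of the wider and 28.6% of the narrower sites held it, in 41 pairs the wider alone, in 29 both, in 7 the narrower alone and in 49 neither. Longer sequence offers more places for a match, so these shares are not per base. Outside clusters both shares also rose with width. Sites under 300 bp held the consensus in 17.4% and were shared in 31.7%. At 600 bp and over the shares were 81.9% and 99.9%. The direction of the contrast was thus not particular to pairs.

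**Figure D3:**
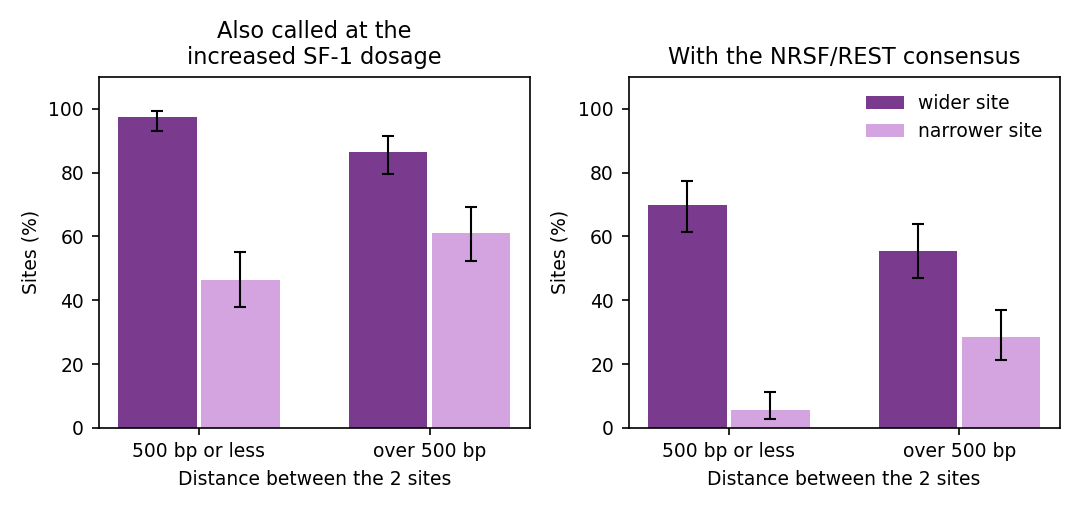
Share of sites (vertical axes, %) called again at the increased dosage (left) and with the NRSF/REST consensus (right) for the wider (dark) and the narrower (light) site of 249 pairs, by the distance between them (horizontal axes), with 95% Wilson intervals. At 500 bp or less the narrower site held the consensus in 5.69% of 123 pairs, and beyond 500 bp in 28.6% of 126.

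Where neighbouring sites both held a match, the directions of the matches were compared. There were 44 such pairs. Both sites were shared in 40 of them, and 251 of all 257 clustered sites with the consensus were shared. The matches of the 44 pairs lay a median of 2521 bp apart (576 to 6227 bp). In 29 (65.9%, exact 95% interval 50.1% to 79.5%) both matches ran in the same direction, in 7 they faced each other and in 8 they faced away. In 5 pairs the matches were identical over 21 bases, and without these 25 of 39 (64.1%, 47.2% to 78.8%) ran in the same direction. The interval over all 44 pairs only just cleared 50%, and under each of the 8 alternatives tried it included 50%, so no preference for one direction was shown. The median pair was alike in 15 of 21 bases. Of the 21, 13 are fixed positions of the searched consensus, so much of this likeness was set by the search, and no baseline was taken. Within a site, 30 clustered sites (4.09%, 2.88% to 5.77%) held 2 or more matches, against 2.35% (1.95% to 2.83%) of the other sites. Of 38 adjacent matches in these sites, 30 ran in the same direction and 19 were at most 60 bp apart, 18 of these in the same direction. In the other sites the numbers were 88 of 125 in the same direction and 44 of 53 at 60 bp or less. Besides NPAS4, chosen after their values were seen, a site 3521 bp from the homeobox gene NKX1-1 held 4 matches, and sites at GOLGA7B and in an intron of SHANK2, a scaffold protein of the synapse, held 3 each. The 3 matches at SHANK2 stood 36 bp from each other, ran on the minus strand and all carried G3C.

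In 3 clusters, at CACNA1B, EPHA10 and NLRP5, the consensus stood in 3 sites. That at CACNA1B spanned 12849 bp (chr9:140772851-140785699, 4 sites). Its sites were 1099, 499, 1849 and 999 bp wide at the basal dosage. Sites 1, 3 and 4 were called again at the increased dosage at widths of 1149, 1899 and 999 bp, and site 2, the narrowest and the only site without the consensus, was not. The matches of sites 1 and 3 lay in introns. That of site 4 lay outside coding sequence in an exon of CACNA1B or of an overlapping gene on the other strand. All 3 ran with the direction of transcription of CACNA1B. At EPHA10 (chr1:38229401-38233499) 3 sites of 1499, 249 and 199 bp held the consensus, the match of site 1 in an intron and those of sites 2 and 3 at 880 and 2553 bp upstream of the gene start, where this and the other distances to a gene start are taken from the middle of the match. The widths at the increased dosage were 1349 and 149 bp for sites 1 and 2, and site 3 was not called. At NLRP5 (chr19:56526001-56532149), an oocyte gene, 3 of 4 sites held the consensus and were shared, and the best matches of sites 3 and 4 were identical over 21 bases. In sites 3 and 4 of NLRP5, 79.9% and 76.1% of the 32-base words occurred more than once in the genome.

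Around NPAS4 (chr11:66185601-66190599) sites of 1599 and 1799 bp flanked a site of 299 bp. Both wide sites were called again and the narrow site, without the consensus, was not. The match of the first site stood 2158 bp upstream of the gene start and the first of the row of 5 stood 684 bp downstream of it. The increased-dosage list had 4 sites in this span, 2 of them within site 3 of the basal list. At CDH22 (chr20:44857601-44860499) the sites were 199, 649 and 1699 bp wide. Sites 2 and 3 were shared, with 1 and 2 matches, and site 1 had neither an overlap nor a match. At PRLHR both sites were shared, at 499 and 1249 bp at the basal and 499 and 1099 bp at the increased dosage, the first match being in the coding exon and the second 625 bp upstream of the gene start. At WSCD2 both sites lay in introns, without a mismatch, and were shared at 549 and 399 bp against 499 and 399 bp. At HBA2 (chr16:219951-224849) the matches stood 2685 bp upstream and 1571 bp downstream of the gene start, and the cluster ended 1830 bp before HBA1. Of the 32-base words of the HBA2 sites, 52.7% and 58.6% were repeated, with a median of 2 copies. At SLC1A6, where the sites also overlapped CCDC105, both were shared, at 799 and 1199 bp against 899 and 1099 bp. The tenth of these clusters (chr19:55728151-55732299) lay 5707 bp from TMEM86B, with both sites shared and both matches free of mismatches.

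**Figure D4:**
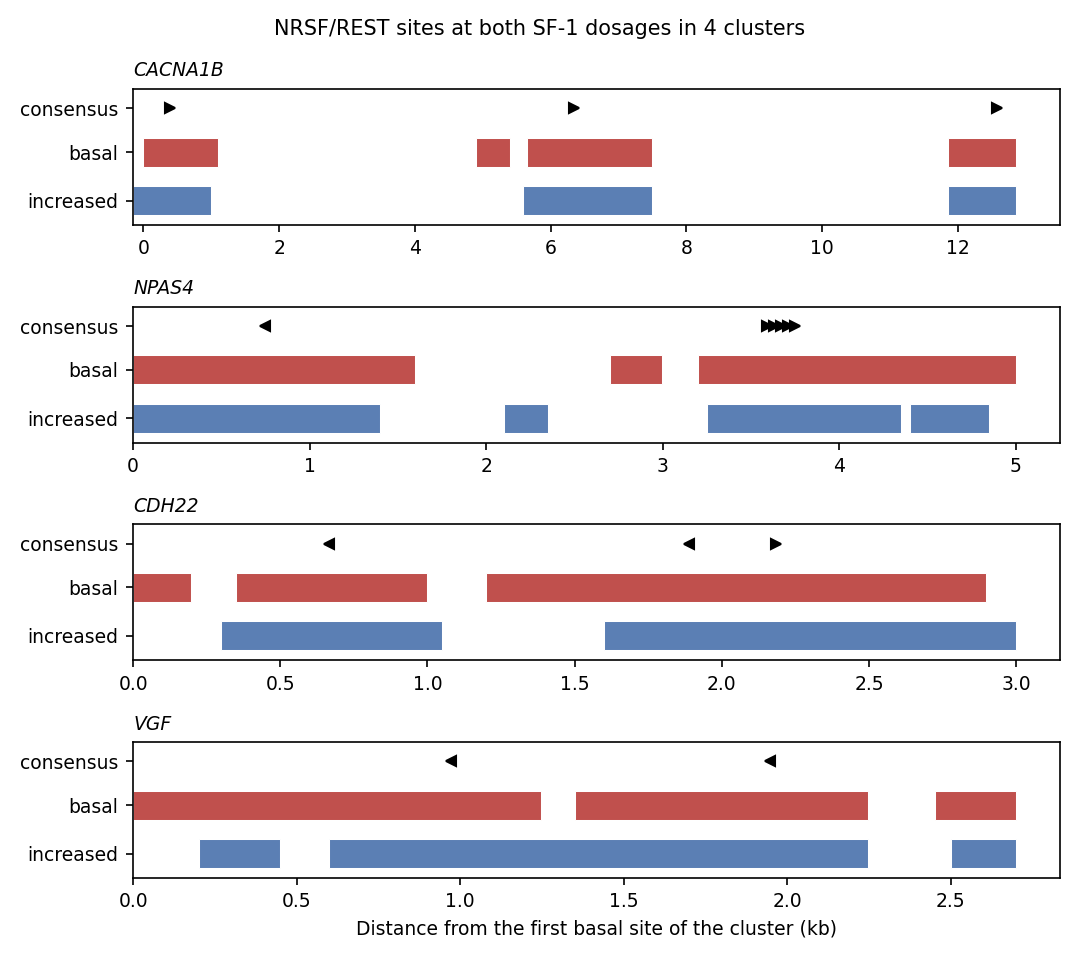
Positions of NRSF/REST sites at the basal (red) and increased (blue) SF-1 dosage in the clusters at CACNA1B, NPAS4, CDH22 and VGF, by distance from the first basal site in kb (horizontal axes), with consensus matches as triangles that point in their direction. The narrow basal site without a match in the CACNA1B, NPAS4 and CDH22 clusters has no increased-dosage site over it.

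Genes of neurons often had a cluster in them or within 10 kb. Of all 20149 protein-coding genes, 251 (1.25%) had one and 2804 (13.9%) had at least 1 basal site. Among the gene lists the shares with a cluster ran from 15.4% (8 of 52 voltage-gated ion channels) and 17.0% (9 of 53 neurotransmitter receptors and transporters) over 17.6% (6 of 34 genes of neuronal adhesion and guidance), 20% (6 of 30 genes of the neuronal cytoskeleton and axon) and 20.9% (9 of 43 genes of synaptic vesicles and secretion) to 21.1% (8 of 38 neural transcription factors and RNA-binding proteins). The lists hold known NRSF/REST target genes, so their share is not independent of what is known of the factor. Most were also lists of long genes, with a median length of 132 kb for the ion channels against 27.2 kb for all protein-coding genes, while the transcription factors and RNA-binding proteins were shorter at 14.6 kb. Of the list genes that had a site at all, 22.2% to 30.8% per neural list had a cluster, against 8.95% of all protein-coding genes with a site. The 47 list genes with a cluster had 47 clusters, of which 25 had every site shared and 0 had no site shared. Among all 320 clusters the shares were 48.1% and 6.25%. The consensus was in no site of 7 of the 47, in 1 site of 29 and in 2 or more sites of 11. Among all 320 clusters these shares were 36.6%, 47.5% and 15.9%. The difference was not tested.

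At the other ion channel genes named here, the wider site carried the match and the narrow one did not. At SCN2A, a sodium channel of neurons, a site of 749 bp with a match free of mismatches was called again at 899 bp, and its neighbour of 99 bp was not called. At SCN3B, a sodium channel beta subunit, and at CACNA2D2, a calcium channel accessory subunit, sites of 849 and 149 bp and of 149 and 1099 bp, each pair 51 bp apart, overlapped 1 increased-dosage site of 1049 and 1199 bp. That site reached over only a part of the 149 bp site in both genes. Among receptors, GRIN1, the obligatory NMDA receptor subunit, had 4 sites in 2199 bp at its start. The widest, of 1049 bp, held the only match, and the first, of 99 bp, was the only site not called again. At GRIN3A, another NMDA receptor subunit, 2 sites of 1049 and 549 bp, 51 bp apart, both held matches with 2 mismatches. Both overlapped 1 increased-dosage site of 1499 bp. At HTR1A, a serotonin receptor, both sites were shared and 1 of them held a match without mismatch.

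Among genes of secretion, VGF, which encodes a precursor of secreted peptides, had 3 sites of 1249, 899 and 249 bp, all shared, with T4G in the match of the first and G9C in that of the second. The match of the second spanned the gene start. SNAP25, a protein of vesicle fusion, had a site of 749 bp with 2 matches, shared, beside a site of 199 bp with none, not shared. SYT6, a synaptotagmin, had both sites shared, and CHGA, the granule protein chromogranin A, had the middle of 3 sites shared, 999 bp wide and with the only match, 8898 bp upstream of the gene start. Among adhesion and guidance genes, the netrin receptor UNC5A had 2 clusters. One lay upstream, with matches carrying G12C in both sites 4134 and 6392 bp before the gene start. The other lay in the gene, with a site of 1099 bp that held 3 matches beside a site of 99 bp that held none and was not called again. At CNTNAP2 the match stood 62 bp upstream of the gene start in a site of 1599 bp.

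Transcription factor and RNA-binding protein genes had clusters with a match in both sites at LHX3, MYT1 and ELAVL2. At MYT1 the site of 399 bp with G9A was shared and the site of 199 bp with G3C was not, an instance of a consensus site called at the basal dosage only. At LHX3 the sites were 249 and 849 bp wide, at ELAVL2 549 and 699 bp, and all 4 were shared. At CELF3, which encodes a splicing regulator, the middle of 3 shared sites held the only match. Among genes of the cytoskeleton and axon, TUBB3, the neuronal beta tubulin, had matches in 2 of 3 sites, with the site of 149 bp lacking both a match and a call at the increased dosage. STMN2, a regulator of microtubules, had a match in both of its sites, at 492 and 1557 bp upstream of the gene start. The cluster near SNCB lay in and before GPRIN1, 8234 bp from SNCB. NEFH, a neurofilament subunit, had a match without mismatch 1532 bp upstream of the gene start.

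For NRSF/REST and its corepressors and for steroid production, the shares of genes with a site were read against the 13.9% of all protein-coding genes. Of 14 genes of NRSF/REST and its corepressors, 2 (14.3%) had a site. REST itself had 2, at chr4:57774251-57775149 and chr4:57821251-57821699, too far apart to form a cluster. EHMT1, a histone methyltransferase, had a cluster within 10 kb, which was the CACNA1B cluster 8383 bp away. Of 22 steroid production genes, 5 (22.7%) had a site, CYP11B1, CYP11B2, FDXR, POR and MC2R, each a single site, and none had a cluster. With 22 genes the absence of a cluster says little, since 1.25% of all protein-coding genes had one.

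The clusters with the most sites were of another kind. The 6 clusters of 5 or more sites held 49 sites, of which 39 were called again at the increased dosage and 0 held the consensus. Among all clustered sites these shares were 72.8% and 35.0%, and in the whole basal list 64.5% and 40.7%. In hg19, 5 of the 6 lay within 1 Mb of a run of at least 50 kb of unknown bases, as found at centromeres and other gaps of the assembly. The largest, of 13 sites at chr2:133011901-133039099, lay in and beside ANKRD30BL, was 16651484 bp from such a run, and had 10 sites called again. Its sites had between 1.12% and 100% of their words repeated. The cluster of 10 sites at chr10:42380001-42400899 had every site called again, and its words were repeated at 31.1% to 63.6% per site. On chromosome 16, the cluster of 8 at chr16:33949301-33963999 had 3 sites called again, that of 7 at chr16:46399951-46408849 had 6, and that of 6 at chr16:46386201-46393299 had 5. In the cluster of 6, 83.1% of words were repeated, and the median number of copies of a word reached 4. No protein-coding gene overlapped these 4 clusters.

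Repeated sequence was more frequent among clustered sites in general. In 80 of 734 (10.9%, 8.85% to 13.4%) at least 50% of the 32-base words occurred more than once in the genome, against 3.81% (3.30% to 4.41%) of the other sites and 4.79% of the whole list. Those 80 sites were shared in 76.2% (65.9% to 84.2%) and held the consensus in 8.75% (4.30% to 17.0%), while the other 654 clustered sites were shared in 72.3% and held it in 38.2% (34.6% to 42.0%). Among sites outside clusters, the 175 repeated ones were shared in 50.3% and held the consensus in 21.1%, and the less repeated ones held it in 42.4% (40.9% to 43.8%). Without the sites at or above this 50% cut, the consensus share was still lower among clustered than other sites, in overlapping intervals. Such overlap does not show that the shares are equal. Most sites of the clusters of 13, 10 and 8 sites, none with the consensus, lay under the cut and stayed in. Whether the lower share holds without all sites of partly repeated sequence or near assembly gaps was not tested. By cluster, 28 of 320 (8.75%) reached 50% of their words, 23 of them had no consensus, and 24 lay within 1 Mb of a run of unknown bases, compared with 94 and 67 of the remaining 292. Of all clustered sites 31.1% (27.8% to 34.5%) lay within 1 Mb of such a run, against 12.5% (11.6% to 13.5%) of the other sites. The part of repeated sequence in these calls was not tested.

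**Figure D5:**
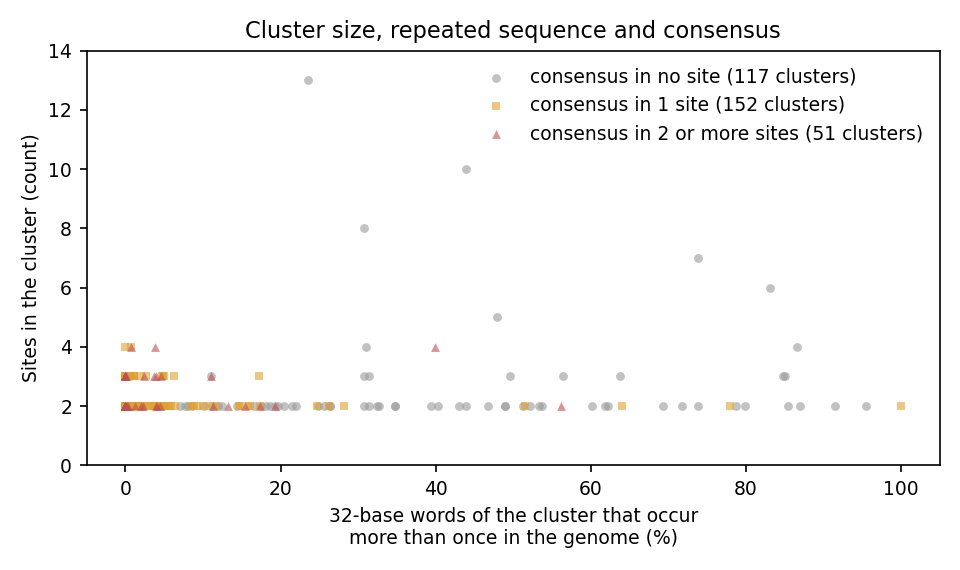
Number of sites in each of 320 clusters (vertical axis) against the share of its 32-base words that occur more than once in the genome (horizontal axis, %), by the number of sites with the consensus. The 6 clusters of 5 or more sites all have no site with the consensus (grey circles), and the 51 clusters with 2 or more such sites (red triangles) have at most 4 sites.

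The 3 clusters of largest summed width without a shared site differed in repeated sequence, with 56.4%, 31.3% and 71.8% of their words repeated. Among the 20 clusters without a shared site the value ran down to 0%, as at ADGRL2 (chr1:82113401-82114749) and PTGES3 (chr12:57080851-57081499). At chr1:145255651-145264799, in introns of NBPF10 and annotated NOTCH2NL genes, 3 sites of 149 to 199 bp had 35.1% to 71.2% of their words repeated. An increased-dosage site lay inside this span without overlapping a basal site, the only such case among the 20 clusters. At chr1:121138001-121138849, in SRGAP2-AS1 and LINC02798, 2 sites of 299 and 149 bp had 31.3% and 31.4% repeated words. At chr21:9922401-9926049, in the pseudogene TEKT4P2, 2 sites of 249 and 199 bp had 73.4% and 69.6%. None of these 7 sites held the consensus.

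The position relative to genes was taken from the midpoint of a site. It was in a gene in 56.3% (52.7% to 59.8%) of the clustered and 64.2% (62.8% to 65.6%) of the other sites. For protein-coding genes alone it was 44.3% (40.7% to 47.9%) against 48.5% with a lower bound of 47.1%, so the intervals overlapped. It was in an intron in 42.6% against 53.5%, between genes in 43.7% against 35.8%, and in a coding exon in 2.72% against 3.14%. Exons outside coding sequence, with those of non-coding genes and pseudogenes included, held it in 10.9% against 7.54%. The SF-1 consensus, searched as CAAGGTCA, CAAGGACA and CAAGGCCA on either strand without mismatch, was in 11.3% (9.22% to 13.8%) of the clustered and 11.5% (10.6% to 12.4%) of the other sites. The same windows 10 kb away, a few of which overlapped a basal site, held it in 8.11% (6.82% to 9.61%) and 6.38% (5.90% to 6.90%). The intervals of clustered and other sites overlapped for the SF-1 consensus in the sites.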

How the data were processed

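The authors immunoprecipitated chromatin of H295R/TR SF-1 cells with an anti NRSF/REST antibody, mapped reads to hg19 with ELAND v2 and deposited 1 list of sites per dosage. The submitters' processing notes name CASAVA 1.6. CisGenome and its settings are stated for SF-1 sites, and those for NRSF/REST sites are not given in the sources used here. The deposited files give coordinates on 50-bp steps, an order number and the authors' score, which is 1000 for every site and ranks nothing. Replicates and read counts were not used here, since each dosage has 1 library.

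Starts, which count from 0 in the files, were raised by 1. Sites at most 5000 bp apart were chained, overlap was at least 1 bp, and other sites of the basal list served for comparison. Genes were those of GENCODE release 44 mapped to hg19, assigned by site midpoint, in the order coding exon, other exon, intron, intergenic. Words of 32 bases were counted over the genome on both strands. Overlapping matches were counted once, keeping the fewest mismatches. Matches were compared between neighbouring sites by the best match of each. Shares have 95% Wilson intervals, that of match direction an exact one. Python 3.11.15, numpy 2.4.6, scipy 1.17.1, pysam 0.24.0, numba 0.67.0 and matplotlib 3.10.9 were used. Chaining, overlap, matching and the placing of midpoints in a gene were checked on simulated data, and the exon and intron classes were not.

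The members and the gene lists were chosen with earlier results of these data known. Named clusters followed a rule: the 5 with the most sites, the 10 with the consensus in the most sites, the 3 of largest summed width with no shared site, at most 4 per gene list within 10 kb, and the pairs beside the 5 kb limit. The alternatives tried are other chain distances, merging at 500 bp, the widest 50% of sites, other overlap rules, mismatch limits, genes and forms of the SF-1 consensus, and leaving out repeated sites. One named item is not reported here.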

Additional observations from a re-analysis of the deposited data

How the results depend on the processing

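Of 64 alternative values, 36 moved by less than their interval or by less than 1.5 times for counts, and 28 moved. Chaining at 1 kb gave 479 clustered sites and 15 clusters with the consensus in 2 or more sites, and chaining at 10 kb gave 77 such clusters. Merging sites within 500 bp first gave 400 clustered sites in 178 clusters, with every site shared in 57.3% of clusters and 50% of sites in a gene. The widest 50% of the list gave 251 sites in 112 clusters, with 94.4% of sites shared, every site shared in 89.3% of clusters, the NRSF/REST consensus in 49.0% and the SF-1 consensus in 17.5%. Overlap over at least 50% of both sites gave 64.7% of sites shared and 35.3% of clusters with every site shared, and midpoints within 100 bp gave 58.4% and 31.6%. With no mismatch the consensus was in 12.9% of sites and in 2 or more sites of 8 clusters, with 83.3% (5 of 6, 35.9% to 99.6%) of neighbouring matches in the same direction. The other 7 alternatives gave 59.3% to 68.2% in the same direction, against 65.9%, and the interval included 50% in each of the 8. With at most 1 mismatch it was in 27.2% and 30 clusters, and with at most 3 in 46.0% and 94 clusters. With protein-coding genes only, 44.3% of sites lay in a gene, and with CAAGGTCA only, 3.00% held the SF-1 form. Leaving out sites with 50% or more repeated words, an alternative chosen after seeing the data, gave the consensus in 38.7% and 60.2% in a gene. No paired analysis was possible because each dosage has 1 library. Read depth is unknown, so whether a narrow site missing from a list lay just under the calling threshold was not tested.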

Other observations

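One cluster, picked out after its values were seen, lay in nuclear copies of mitochondrial genes. At chr1:568001-570149, over the pseudogenes MTCO2P12, MTATP8P1, MTATP6P1 and MTCO3P12, 3 basal sites of 299, 249 and 449 bp shared 64.2%, 53.2% and 59.3% of their 32-base words with the mitochondrial genome. None held the NRSF/REST consensus, and the first and last were called again at the increased dosage. Whether reads of mitochondrial DNA contribute to these calls was not tested.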
